A study of Mus musculus with 16 samples.

Results

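Mesoderm progenitors (MP), the T+CD24low cells of differentiating mouse embryonic stem cells (mESCs), were compared between day 2 and day 4 of differentiation. The comparison rested on the 4 Affymetrix Mouse Gene ST 1.0 arrays labelled T+ with low CD24, 2 of each day, of the 16 arrays of the series. It was read for 18716 genes, each through the brightest of its probe sets that carry a single gene symbol, among the 32000 of highest mean of the 35556 probe sets on the array. A level is the deposited log2 value of a probe set, and a change is the difference of the day means on that scale, so that a change of 1 is a doubling. A gene was called where the change exceeded 1 in size and the adjusted p of limma, taken over all 32000 probe sets, was below 0.05.

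Every sorted group came from T GFP/+; Foxa2 tagRFP/+ mESCs, which carry a green reporter in 1 allele of T and a red reporter in 1 allele of Foxa2. The labels give the line E14.1 of the 129/Ola background, whereas the methods name another parental line. The mESCs were differentiated on feeder cells that express Wnt3a. The F+ groups came from endoderm medium, with activin A at 12 ng/ml, and the T+ groups from mesoderm medium, for which the protocol adds activin A at 3 ng/ml and Bmp4 at 7.5 ng/ml to the endoderm medium, so that its total activin A is not clear. MP were Foxa2-negative, T-positive cells with low CD24, a surface glycoprotein, sorted on day 2 and on day 4. T+CD24neg cells (mesoderm, MES) came from the same medium on day 4. F+CD24low cells (endoderm progenitors, DEP), of days 2 and 4, were Foxa2-positive, and the mESC group (ES) was undifferentiated. Each group had 2 biological replicates, and the p-values measure only the spread between such samples.

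In the embryo, mesoderm arises from primed epiblast cells that pass through the primitive streak under Nodal, Wnt, Fgf and Bmp signals. Cells that leave the posterior streak early and meet much Bmp form extraembryonic and lateral mesoderm, with the first blood and vessel precursors and, close by, the primordial germ cells. Hox genes are switched on in the order of their position in each cluster, with Cdx factors acting on them in the posterior embryo. The question put to the arrays was which of these programmes differed between cells sorted for the same reporter and low CD24 on either day.

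The arrays were alike in overall level, with medians from 7.73 to 7.80 over all 16. Replicates correlated at 0.994 on day 2 and 0.991 on day 4 over the probe sets kept, and arrays of different days at 0.982 to 0.983. Cd24a, on which the cells were sorted, stood at 12.40 and 12.52 on day 2 and at 12.45 and 12.33 on day 4. Foxa2 stood at 7.73 and 8.26 on day 2 and at 7.71 and 8.05 on day 4, against a mean of 11.25 in DEP of day 2. The mean of 19 definitive endoderm markers lay between 8.62 and 8.65 on day 2 and between 8.40 and 8.53 on day 4, with 11.69 to 11.71 in F+CD24high cells of day 4. That of 24 fibroblast markers lay between 6.92 and 7.02 on day 2, between 7.11 and 7.17 on day 4 and between 9.34 and 9.72 in ES, and the part of feeder RNA in the ES levels given here was not tested. The mesoderm markers Foxf1 and Hand1 stood at 9.29 or above on all 4 MP arrays, against ES means of 6.98 and 7.26. Hand2 stood at 7.41 and 7.51 on day 2, against 7.36 and 7.57 in ES. The mean of 22 lateral and cardiac mesoderm markers lay between 7.75 and 7.87 on day 2 and between 8.27 and 8.36 on day 4. It lay between 7.48 and 7.57 in ES and between 8.97 and 8.98 in MES. In F+CD24high cells of day 4, at 8.23 to 8.25, it was near that of MP of day 4.

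Between the days 229 genes rose, which is 1.22% of all genes read, and 96 genes fell, 0.513%. Of these, 35 rose and 15 fell by more than 2 on the log2 scale. The median change of all genes was 0.01. Both arrays of one day lay above both arrays of the other in 51.3% of all genes and in all 325 called genes. With 2 arrays a day such separation is frequent without any change, and the call nearly requires it, so it is no further support. Because the arrays hold bulk RNA, a larger share of cells that express a gene and more of its RNA per cell cannot be told apart.

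**Figure D1:**
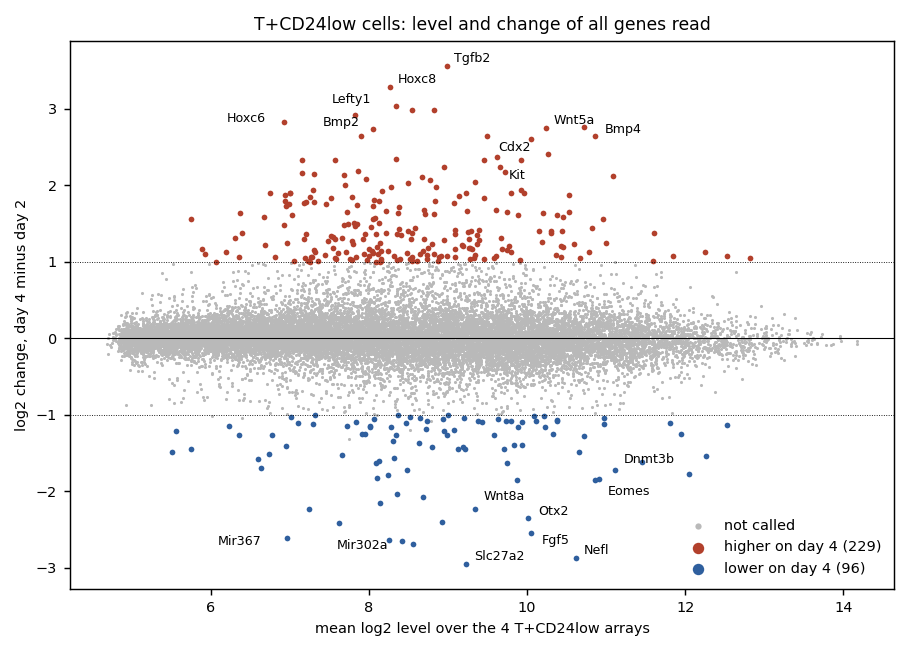
Mean log2 level over the 4 T+CD24low arrays (horizontal) against the log2 change from day 2 to day 4 (vertical) of each of the 18716 genes, with the 229 genes that rose in red and the 96 that fell in blue. Dotted lines mark changes of 1 and -1. The changes reach 3.57 for Tgfb2 and -2.94 for Slc27a2.

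The Bmp ligands were the signal family with the highest share of genes that rose, 4 of 7 measured, with a median change of 1.62. Bmp2 stood at 6.66 and 6.71 on day 2 and at 9.48 and 9.36 on day 4, a change of 2.73 (SE 0.18, adjusted p = 7.89e-06). Bmp4, which is also the factor in the medium and which drives extraembryonic mesoderm and germ cell formation, stood at 9.58 and 9.51 on day 2 and at 12.31 and 12.06 on day 4, a change of 2.64 (SE 0.32, adjusted p = 0.000433). For both genes the day 4 arrays lay well clear of the day 2 arrays. MES held still more of Bmp2, with a mean of 10.62, and about as much Bmp4, with a mean of 12.48.

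Bmp7 rose by 1.62 (SE 0.29, adjusted p = 0.00659), from 9.60 and 9.53 to 11.21 and 11.17, and Bmp5 by 1.78 (SE 0.40, adjusted p = 0.0203), from 6.23 and 6.39 to 8.35 and 7.83. These weaker calls rest on all 4 arrays. That of Bmp7 was lost without day 2 replicate 2 and that of Bmp5 without any one of the arrays, with changes still of at least 1.59 and 1.52. Of 6 Bmp receptors 0 were called by limma, and 2 (33.3%) had an unadjusted p below 0.05, against 20.5% of all genes. Their highest change was the 0.76 of Bambi, a receptor decoy. Of 9 measured antagonists 1 fell. This was Fst, the follistatin that binds activin and some Bmps, which went from 12.13 and 12.40 to 10.53 and 10.78 (change -1.61, SE 0.29, adjusted p = 0.00622), and its call was lost without day 2 replicate 2, at -1.47. Nog and Chrd, both direct Bmp binders, had changes of 0.17 and -0.19.

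Among 14 genes known as Bmp targets, 2 rose and the median change was 0.59. Gata2, a factor of early blood progenitors, rose by 1.06 (adjusted p = 0.000499) and Msx1, a homeobox factor, by 1.02 (adjusted p = 0.0107). Both stand close to the threshold, and without day 4 replicate 1 their changes were 1.00 and 0.91, which ends the call. That of Gata2 was also lost without day 2 replicate 1 and that of Msx1 without day 2 replicate 2. The feedback inhibitor Smad6 (0.96), Msx2 (0.99), Id1 (0.44), Id2 (0.46) and Id3 (0.09) were not called.

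The Nodal pathway did not move as 1 group. Lefty1, a secreted Nodal inhibitor that Nodal itself switches on, stood at 6.86 and 6.80 on day 2 and at 9.76 and 9.97 on day 4, a change of 3.03 (SE 0.27, adjusted p = 4.66e-05), the third highest of all genes. Its neighbour Lefty2, which is so similar in sequence that probes may read both, rose from 6.30 and 6.51 to 8.54 and 8.94, a change of 2.33 (SE 0.32, adjusted p = 0.00113). In contrast, Nodal went from 10.68 and 10.49 to 9.45 and 9.70, a change of -1.01 (SE 0.10, adjusted p = 0.000125). The fall of Nodal is at the edge of the call, which was lost without day 2 replicate 1 and without day 4 replicate 1 (-0.89 at the least) and with each array centred on its median (-0.99). Tdgf1, the Nodal co-receptor also named Cripto, fell by 1.53 (SE 0.14, adjusted p = 5.43e-05), from 13.03 and 13.04 to 11.66 and 11.34.

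Eomes, a T-box factor of the streak that Nodal induces, stood at 11.84 and 11.82 on day 2 and at 10.05 and 9.94 on day 4, a change of -1.83 (SE 0.15, adjusted p = 2.36e-05). The groups of day 4 differed in Eomes, which had a mean of 12.06 in MES, a group without day 2 arrays. Lefty1 too differed between the groups of day 4, with a mean of 7.75 in MES. In all, 2 of 10 measured Nodal targets rose and 2 fell, with a median change of -0.18. Tgfb2, a Tgf-beta ligand outside these lists, had the highest change of all genes, 3.57 (SE 0.27, adjusted p = 1.79e-05), from 7.15 and 7.26 to 10.94 and 10.61.

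Wnt genes moved singly. Of 23 ligands and R-spondins measured 2 rose and 1 fell, and the median change was 0.02. Wnt5a, the ligand of posterior elongation that mostly acts without beta-catenin, rose from 8.81 and 8.92 to 11.70 and 11.54, a change of 2.75 (SE 0.11, adjusted p = 3.27e-07). Rspo3, which strengthens Wnt signals at the receptor, rose by 1.41 (SE 0.24, adjusted p = 0.00472). Wnt8a, a ligand of the early streak, went from 10.55 and 10.36 to 8.25 and 8.19, a change of -2.23 (SE 0.10, adjusted p = 1.18e-06). The streak ligand Wnt3 had a change of -0.61 and Wnt3a one of 0.13, and neither was called.

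Of 16 Wnt receptors Fzd8 rose (1.13, adjusted p = 0.0134) and Ror1, one receptor for Wnt5a, fell from 9.54 and 9.48 to 8.13 and 8.05 (-1.42, adjusted p = 4.4e-05). The other 14 were not called, and the median change of the 16 was 0.06. Of 13 secreted inhibitors Sfrp1 rose by 2.61 (SE 0.20, adjusted p = 1.79e-05) and Frzb fell by 1.05 (adjusted p = 0.00283). Among 14 targets of canonical Wnt signalling, Lgr5 alone was called (1.30, adjusted p = 0.000133), while Axin2 and Sp5 had changes of -0.25 and -0.65. The call of Fzd8 was lost without day 2 replicate 1, day 2 replicate 2 or day 4 replicate 2 (1.04 at the least), and that of Frzb without day 2 replicate 1 (-0.94).

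In the Fgf pathway the clearest change was that of Fgf5, a ligand of the primed epiblast, which fell from 11.42 and 11.22 to 8.76 and 8.79 (-2.55, SE 0.14, adjusted p = 2.34e-06). It was the only called gene among 22 ligands. Fgf8, the ligand of the streak and tail bud, had a change of 0.54 and Fgf4 one of -0.74. Of 18 receptors and response genes, Fgfr2 rose (1.41, adjusted p = 0.000169), Dusp4, a phosphatase that Erk signalling induces, rose (1.06, adjusted p = 0.00102), and Etv1, an Ets factor that Fgf induces, fell (-1.11, adjusted p = 0.0395). Dusp4 lost its call without day 2 replicate 2 or day 4 replicate 1 (0.98), and Etv1 without any one array.

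Some receptors and partners of vessel and guidance signals rose. In the Vegf and Pdgf list 4 of 15 rose, with a median change of 0.45. Nrp1, a co-receptor for Vegf and semaphorins, went from 7.34 and 7.0 to 9.60 and 9.43 (2.35, SE 0.26, adjusted p = 0.00023). Pdgfrb rose by 2.12 (SE 0.21, adjusted p = 0.000104), Kdr, the main Vegf receptor, by 1.37 (SE 0.23, adjusted p = 0.00431), and Nrp2 by 1.02 (adjusted p = 0.0162). Of 31 semaphorins, plexins and neuropilins 4 rose, namely both neuropilins, which the Vegf list also holds, Plxnd1 (1.63, adjusted p = 1.79e-05) and Sema3a (1.94, SE 0.50, adjusted p = 0.0425). The calls of Nrp2 and Sema3a were lost without any one array, at changes of at least 0.91 and 1.71. Of 21 Eph receptors and ephrins, cell contact signals, Efna1 (1.21, adjusted p = 0.00216, lost without day 4 replicate 2, at 0.90) and Ephb3 (1.19, adjusted p = 7.62e-05) rose and Epha1 fell (-1.39, adjusted p = 0.00016), with a median change of 0.08.

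In the Notch list 2 of 19 rose, and both were target genes of the pathway: Hey2 (1.91, adjusted p = 4.43e-05) and Hey1 (1.15, adjusted p = 0.0105), the latter lost without day 2 replicate 1, day 2 replicate 2 or day 4 replicate 2 (0.94 at the least). Of 17 retinoic acid genes the binding proteins Crabp1 (1.66, adjusted p = 0.000188) and Crabp2 (1.29, adjusted p = 0.0409, lost without any one array) rose and the receptor Rxrg fell (-1.44, adjusted p = 2.5e-05). The retinoic acid producing enzyme Aldh1a2 had a change of 0.49. Igf2, the fetal growth factor, rose from 10.09 and 9.95 to 12.27 and 12.02 (2.13, SE 0.28, adjusted p = 0.000805). Its binding proteins split, with Igfbp4 higher by 1.90 (adjusted p = 0.000512) and Igfbp2 lower by 1.45 (adjusted p = 0.000426). Both peptide ligands of the apelin receptor fell, Apln by 1.49 (adjusted p = 0.000735) and Apela by 1.13 (adjusted p = 0.000117), the latter lost without day 4 replicate 1 (-0.97), while Aplnr itself stood at 9.40 and 9.59 on day 2 and at 10.55 and 10.35 on day 4 (0.96, adjusted p = 0.008), just short of the fold threshold.

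**Figure D2:**
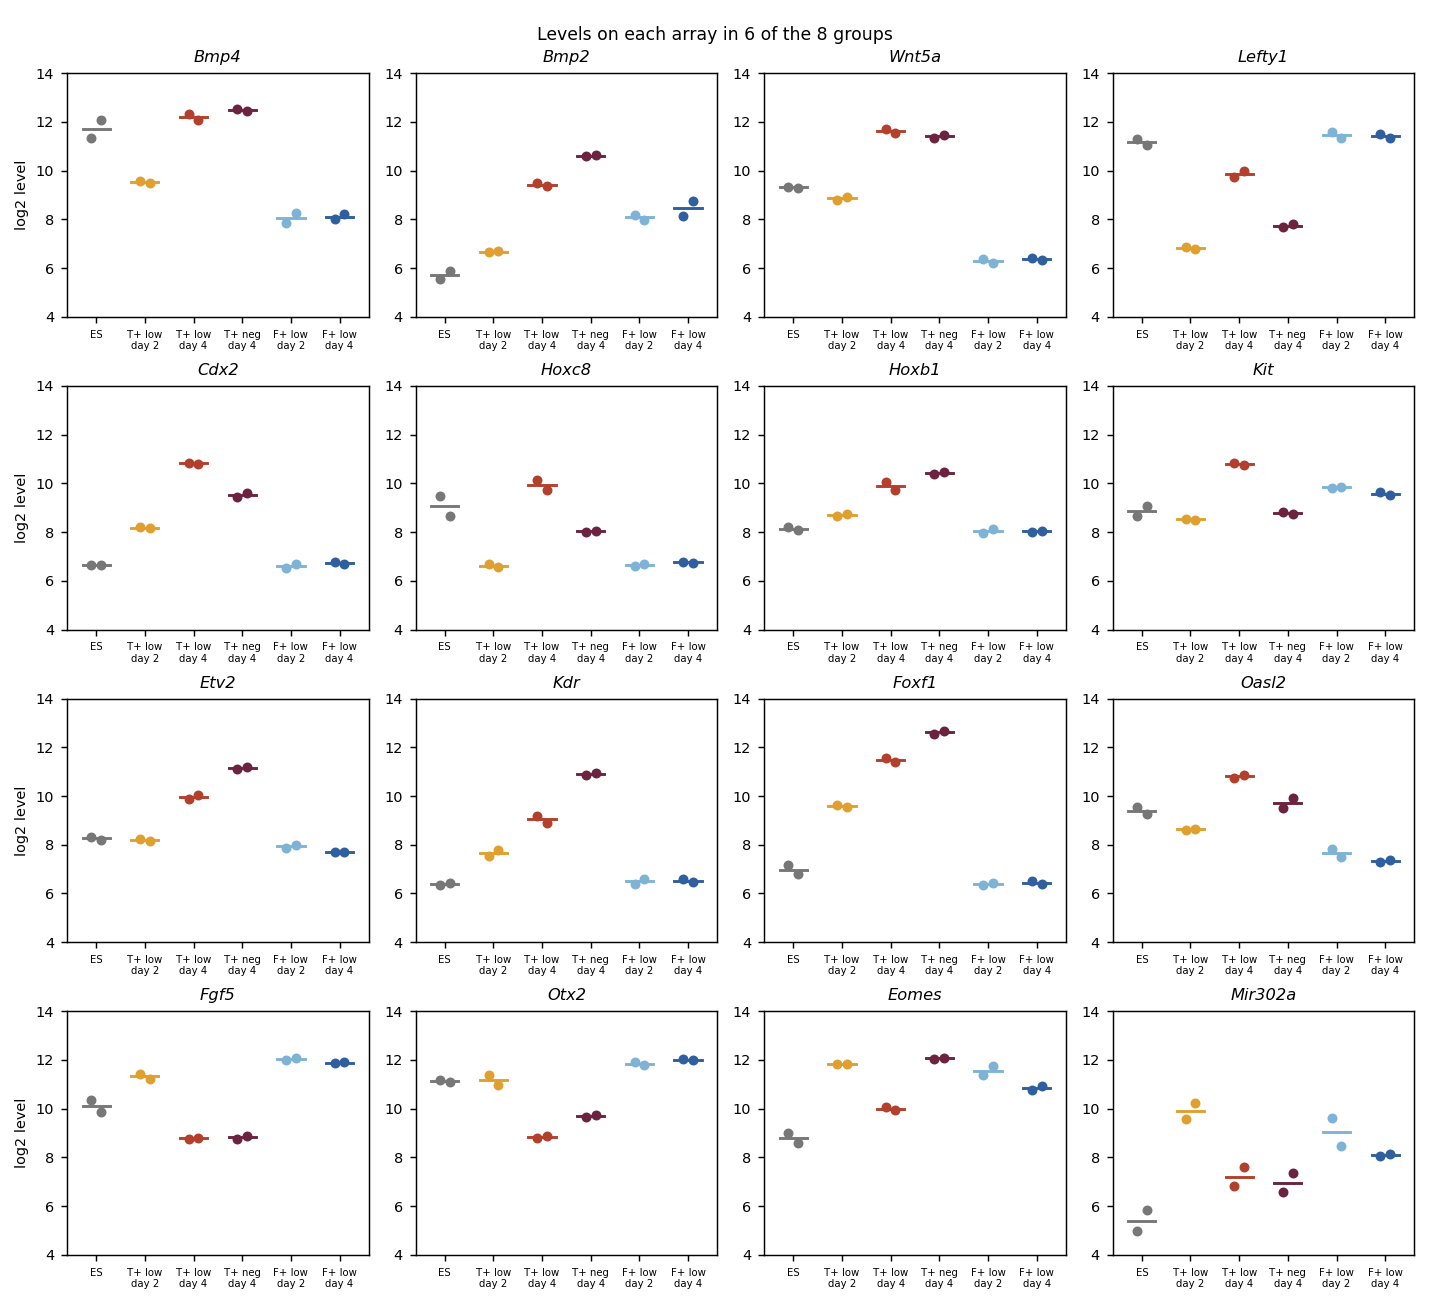
Log2 level on each array (dots) and the mean of the 2 arrays (bars) of 16 genes in 6 of the 8 groups, all on the same axis from 4 to 14. T+ low is T+CD24low, T+ neg is T+CD24neg and F+ low is F+CD24low. From day 2 to day 4 of T+CD24low the first 12 genes go up and Fgf5, Otx2, Eomes and Mir302a go down, with no overlap of the days, while Eomes in T+CD24neg, at a mean of 12.06, lies at the day 2 level.

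Of the gene lists, that of the Hox genes held the most members that rose. Of 37 measured, 17 rose and none fell, 36 of the 37 had a positive change and the median change was 0.88. Hoxc8 stood at 6.69 and 6.56 on day 2 and at 10.12 and 9.71 on day 4, a change of 3.29 (SE 0.28, adjusted p = 4.29e-05), the second highest of all genes. Hoxc6 stood at 5.44 and 5.59 on day 2 and at 8.46 and 8.22 on day 4, a change of 2.83 (SE 0.23, adjusted p = 2.61e-05). In both genes the arrays of a day lay much closer to each other than to those of the other day.

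By cluster, 4 of 10 Hoxa, 3 of 9 Hoxb, 5 of 9 Hoxc and 5 of 9 Hoxd genes rose, with medians of 0.93, 0.66, 1.09 and 1.47. The number that ends a Hox name gives its place along the cluster, low for anterior and high for posterior. Of paralogs 1 to 3, which are switched on first in the embryo, 2 of 7 rose, Hoxb1 by 1.17 and Hoxb2 by 1.73 (median change 0.54). Hoxa2 (0.54), Hoxa3 (0.88) and Hoxd3 (0.50) missed the call by the fold threshold alone (adjusted p of limma = 0.00851, 0.000409 and 0.0339). Hoxb3 (0.31) and Hoxd1 (0.40) had adjusted p = 0.129 and 0.164. Of paralogs 4 to 8, which pattern neck and trunk, 7 of 14 rose (median change 0.99). The share was highest for paralogs 9 to 11, with 8 of 10 (median 1.47), among them Hoxa9 from 6.50 and 6.73 to 8.81 and 8.69 (2.13, adjusted p = 2.19e-06), Hoxc10 (2.16, adjusted p = 4.82e-06) and Hoxd9 (2.08, adjusted p = 3.05e-06). Of the 6 genes of paralogs 12 and 13, 0 were called by limma, with changes from -0.01 to 0.68. An unadjusted p below 0.05 was seen for 1 of them (16.7%), against 20.5% of all genes. This was Hoxa13 (0.68, adjusted p of limma = 0.00901), which missed the call by the fold threshold alone.

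Hoxa6 (1.00), Hoxb1 (1.17) and Hoxc9 (1.09) are the Hox calls lost when 1 array was left out, at changes of 0.99 each, Hoxa6 without day 2 replicate 2 or day 4 replicate 1, Hoxb1 without day 4 replicate 1 and Hoxc9 without day 4 replicate 2. Hoxc4, Hoxc5 and Hoxc6 share transcripts, so their probe sets may read common RNA. The levels in MES differed by gene: for Hoxb1 the MES mean was 10.43 against 10.06 and 9.71 in MP of day 4, whereas for Hoxc8 it was 8.03, for Hoxa9 6.91 and for Hoxc10 6.40. In ES, Hoxc8 had a mean of 9.08, with the fibroblast markers at the levels given above.

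**Figure D3:**
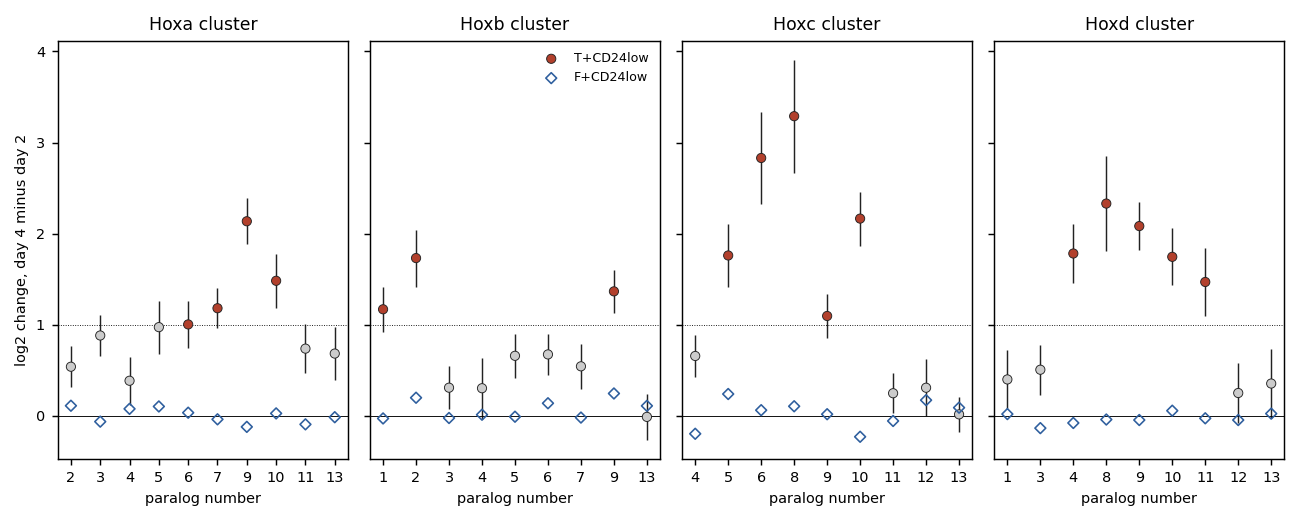
Log2 change from day 2 to day 4 of the 37 Hox genes, by cluster and paralog number, in T+CD24low cells (circles, red where called, grey otherwise, with 95% confidence interval) and in F+CD24low cells (blue diamonds). The F+CD24low changes stay between -0.23 and 0.25, while T+CD24low reaches 3.29 at Hoxc8.

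Cdx2, the caudal factor that acts on Hox clusters and also marks trophoblast and extraembryonic mesoderm, rose from 8.20 and 8.15 to 10.84 and 10.80. Its change was 2.64 (SE 0.09, adjusted p = 1.9e-07), the smallest adjusted p of the comparison together with that of Amph, and MES had a mean of 9.52. Cdx1 had a change of 0.07. The Hox cofactors of the Meis and Pbx families were not called, with Meis1 at 0.63 and Meis2 at -0.61. Nkx1-2, a marker of the posterior zone that feeds the trunk, had a change of 0.99 (adjusted p = 0.00427), just under the threshold, which it passes with arrays centred on their medians (1.00).

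Of the mesoderm lineages, blood and vascular progenitor genes had 9 of 30 that rose, with a median change of 0.37. Etv2, the Ets factor at the head of the blood and endothelial programme, went from 8.24 and 8.14 to 9.88 and 10.04 (1.77, SE 0.09, adjusted p = 2.19e-06). Its partner Fli1 rose by 1.66 (adjusted p = 5.52e-05), the endothelial adhesion molecules Pecam1 and Cdh5 by 1.51 and 1.50 (adjusted p = 8.21e-05 and 0.00118), and Sox7, Lmo2 and Runx1 by 1.11, 1.10 and 1.06. Pecam1, at 8.50 and 8.63 in MP of day 4, stood at 8.33 and 8.81 in ES and at 7.48 and 7.42 in MES. Cdh5 stood at 6.92 and 6.86 in ES and at 8.79 and 8.79 in MES. The mean of the whole list was 7.10 to 7.17 on the day 2 arrays, 7.67 to 7.69 on the day 4 arrays and 7.93 to 7.98 in MES. It was 7.39 to 7.43 in ES, above MP of day 2, and 7.57 to 7.60 in F+CD24high cells of day 2. Runx1 stood at 9.25 and 8.90 in MP of day 4 but at 11.64 and 11.56 in F+CD24high cells of that day. Etv2 stood lower in those cells, at 7.74 and 7.68. The genes of differentiated blood cells Gata1 (0.01), Klf1 (-0.34), Hbb-bh1 (0.05) and Hba-x (0.16) were not called. Tal1 had a change of 0.46. The call of Runx1 was lost without day 2 replicate 1 or day 4 replicate 1 (0.88).

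Of 22 lateral and cardiac mesoderm genes 5 rose (median change 0.34). Foxf1, a forkhead factor of lateral and extraembryonic mesoderm, went from 9.61 and 9.56 to 11.55 and 11.38 (1.88, SE 0.14, adjusted p = 1.35e-05). Hand1, a bHLH factor of the same tissues, rose by 1.65 (SE 0.11, adjusted p = 1.03e-05) and the second heart field factor Isl1 by 1.85 (SE 0.19, adjusted p = 0.000136). Gata6 and Hand2 rose by 1.10 and 1.03 (adjusted p = 0.000125 and 0.000121), and both lost the call without day 2 replicate 1 (0.98 and 0.94 at the least), Hand2 also without day 4 replicate 2. Mesp1, the factor of the first cardiac mesoderm, stood at 8.26 and 8.13 on day 2 and at 8.02 and 7.89 on day 4 (-0.24, adjusted p = 0.273), against a MES mean of 9.70. The working heart genes Nkx2-5 (0.09), Tbx5 (0.33) and Myocd (0.36) were not called.

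In the list of allantois, amnion and extraembryonic mesoderm 5 of 16 rose, and its median change, 0.70, was the highest of the lineage lists after the Hox list. Beside Bmp4 and Igf2 these were Pitx1 (1.25, adjusted p = 0.000509), Tfap2a (1.19, adjusted p = 0.00017) and Ahnak (1.11, adjusted p = 0.00106), a large scaffold protein. Tfap2a, an AP-2 factor of surface ectoderm and amnion, stood at 8.20 and 8.10 on day 2 and at 9.36 and 9.32 on day 4, and had a MES mean of 7.61. Of 20 paraxial and presomitic genes only Rspo3 was called, while Tbx6 (0.16), Msgn1 (0.48), Tcf15 (-0.23) and Meox1 (0.16) were not. Of 8 intermediate mesoderm genes Osr1 alone was called (1.02, adjusted p = 0.0172), and it lost the call without any one array.

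**Figure D4:**
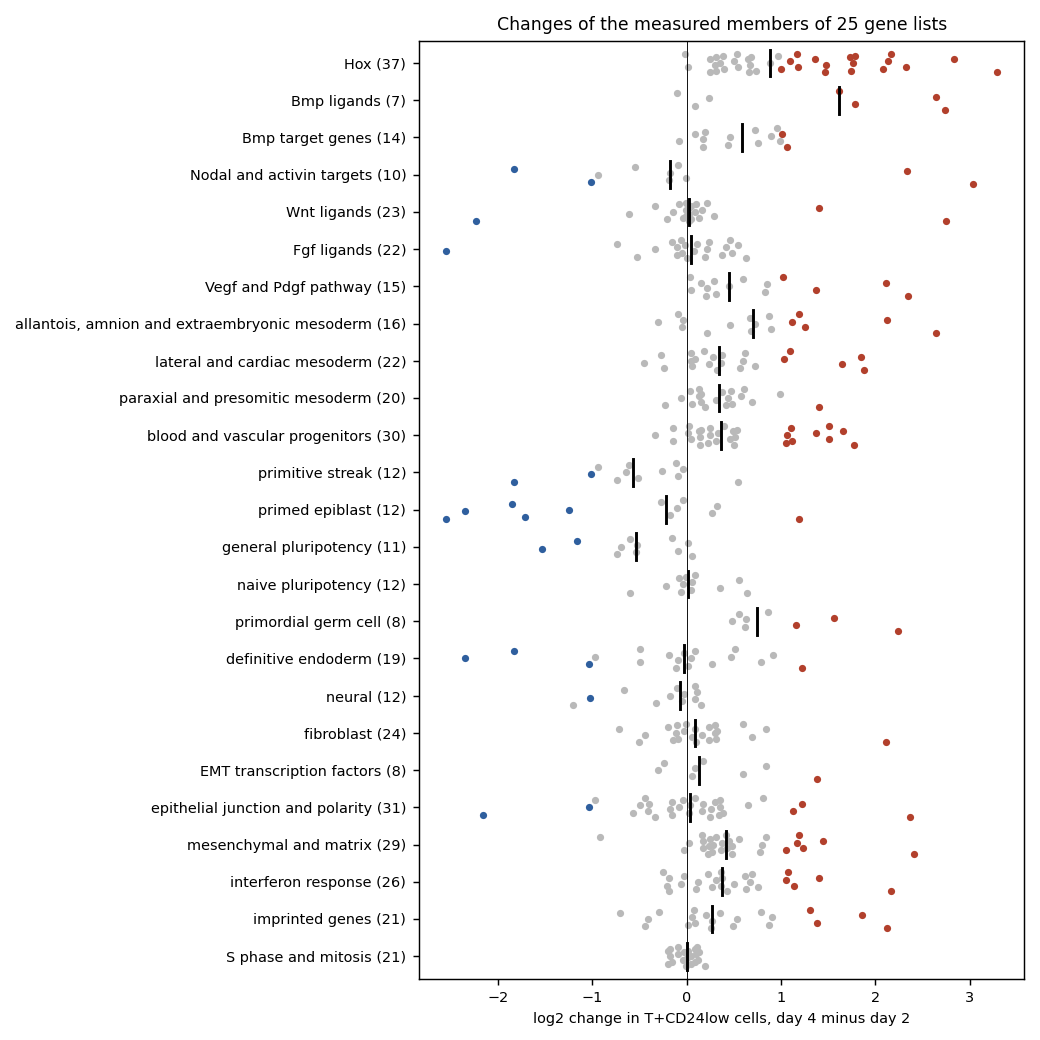
Log2 change from day 2 to day 4 in T+CD24low cells of each measured member of 25 gene lists (dots, red where the gene rose, blue where it fell, grey where it was not called), with the median of the list as a black bar and the number of measured genes in brackets. Hox, Bmp ligands and extraembryonic mesoderm lie to the right of 0, primed epiblast holds 5 genes that fell, and the 21 genes of S phase and mitosis lie between -0.20 and 0.19. Vertical scatter within a list only separates the dots.

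The 8 genes of primordial germ cells all had positive changes, and 3 of them rose. Kit, the receptor of stem cell factor, went from 8.56 and 8.51 to 10.82 and 10.74 (2.24, SE 0.15, adjusted p = 6.88e-06), whereas its MES mean was 8.79. The germ cell regulators Prdm14 and Prdm1 rose by 1.56 (adjusted p = 0.000444) and 1.16 (adjusted p = 0.000963), the latter lost without day 2 replicate 1 (0.94). Tfap2c (0.62), Dppa3 (0.56) and Nanos3 (0.48) were not called. The mean of the list was 8.40 to 8.49 on the day 2 arrays, 9.40 to 9.52 on the day 4 arrays and 8.13 to 8.17 in MES. It was 8.7 to 8.8 in ES and 8.49 to 8.51 in F+CD24high cells of day 4. Kit, Prdm1 and Tfap2c are also used by other embryonic cells. In F+CD24high cells of day 4 Kit stood at 11.42 and 11.55 and Prdm1 at 10.51 and 10.63. Both were thus higher than in MP of day 4, where Prdm1 stood at 10.29 and 10.37. Prdm14 was lower in those F+CD24high cells, at 6.53 and 6.45, than in MP of day 4, at 8.51 and 9.15.

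Genes of the primed epiblast went the other way, with 5 of 12 that fell and 1 that rose, and a median change of -0.22. Otx2, a homeobox factor of epiblast and anterior tissues, went from 11.39 and 10.98 to 8.78 and 8.88 (-2.35, SE 0.12, adjusted p = 2.19e-06). Dnmt3b, a de novo DNA methyltransferase of the epiblast, went from 11.97 and 11.97 to 10.34 and 10.16 (-1.72, SE 0.11, adjusted p = 4.44e-06), and it was the only called gene among 8 DNA methylation enzymes. The zinc finger factors Zic5 and Zic2 fell by 1.85 and 1.25 (adjusted p = 5.63e-05 and 0.000143), and Fgf5 is given above. The gene that rose was Cdh2, N-cadherin.

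Of 11 general pluripotency genes measured, Tdgf1 and L1td1 (-1.16, adjusted p = 0.00233) fell, and the median change was -0.54. Pou5f1 stood at 12.78 and 12.68 on day 2 and at 11.94 and 12.13 on day 4 (-0.69, SE 0.25, adjusted p = 0.14). Nanog stood at 12.31 and 12.31 on day 2 and at 11.73 and 11.85 on day 4 (-0.52, adjusted p = 0.0257), and Sox2 had a change of -0.54 (adjusted p = 0.0558). In MES these means were lower, at 11.23, 10.91 and 8.97. Of 12 naive pluripotency genes 0 were called by limma, 3 had an unadjusted p below 0.05, Klf4 (-0.22) and Esrrb (0.36) among the others, and the mean of the list was 7.52 to 7.68 on day 2, 7.61 to 7.70 on day 4 and 9.99 to 10.65 in ES. Of 12 streak genes Nodal and Eomes fell, and Mixl1 (-0.93) and Gsc (-0.09) were not called.

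Several genes with large falls are known from other tissues. Slc27a2, a fatty acid transporter, had the lowest change of all, from 10.86 and 10.55 to 7.64 and 7.88 (-2.94, SE 0.24, adjusted p = 2.57e-05). Nefl, the light neurofilament, went from 12.05 and 12.07 to 9.16 and 9.22 (-2.87, SE 0.20, adjusted p = 1.23e-05), and Ina, another neurofilament subunit, fell by 1.85 (adjusted p = 0.000485). Their MES means, 6.94, 9.14 and 8.32, lay close to or below the day 4 arrays of MP. Shisa6 (-2.42), Eras, a Ras protein of embryonic stem cells (-2.22), Mal2, a protein of apical transport (-2.15), Arhgef26 (-2.08), Foxd3, a forkhead factor of the epiblast (-2.03), Gpx2 (-1.82) and Cysltr1 (-1.79) were the other protein-coding genes among the 20 lowest that are not described elsewhere. Of 12 neural genes Olig2 alone was called (-1.03, adjusted p = 0.0354), and its call was lost without any one array and with only the 6 T+ arrays in the fit.

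Among the lowest 20 genes were all members of the Mir302 cluster, which encodes microRNAs (miRNAs) known from the primed epiblast. The probe sets read the RNA of the locus, and mature miRNA and its precursor cannot be told apart on these arrays. All 5 genes, Mir302b, Mir302c, Mir302a, Mir302d and Mir367, lie between chr3:127545228-127545807 (RefSeq, GRCm38.p6, plus strand). A mature miRNA pairs with its targets chiefly through the seed, bases 2 to 8 from its 5′ end. The 5p sequences of miR-302b, miR-302c and miR-302d share a seed and are not shown, and no 3p sequence of miR-302a was at hand. The seed stands in capitals in these RefSeq 3p sequences of 4 members of the cluster and of miR-363, whose seeds are compared below.
mmu-miR-302b-3p (chr3:127545275-127545297): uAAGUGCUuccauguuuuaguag
mmu-miR-302d-3p (chr3:127545665-127545687): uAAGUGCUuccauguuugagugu
mmu-miR-302c-3p (chr3:127545406-127545427): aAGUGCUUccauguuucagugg
mmu-miR-367-3p (chr3:127545779-127545800): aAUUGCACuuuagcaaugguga
mmu-miR-363-3p (chrX:52741697-52741718, minus strand): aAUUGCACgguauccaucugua
The seeds of miR-302b and miR-302d are the same, that of miR-302c is shifted along it because the sequence starts later, and miR-367 and miR-363, of different clusters, share theirs.

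Mir302a stood at 9.57 and 10.22 on day 2 and at 6.83 and 7.59 on day 4, a change of -2.69 (SE 0.54, adjusted p = 0.0115). Mir367 stood at 8.01 and 8.51 on day 2 and at 5.51 and 5.81 on day 4, a change of -2.60 (SE 0.34, adjusted p = 0.000841). Mir302b, Mir302c and Mir302d had changes of -2.64, -2.65 and -2.40 (adjusted p = 0.0137, 0.00516 and 0.00901). For all 5 the days did not overlap, but the replicates of Mir302b on day 4, at 6.32 and 7.56, show how far apart arrays of 1 day could lie. Without day 2 replicate 2 the calls of Mir302a, Mir302b, Mir302c and Mir302d were lost, those of Mir302a, Mir302b and Mir302d also without day 4 replicate 1 and that of Mir302d also without day 2 replicate 1. With any one array left out the changes of these 4 lay between -3.26 and -1.91, and the call of Mir367 held. In ES the means were 4.62 for Mir367 and 5.40 for Mir302a. Larp7, the protein-coding gene whose RefSeq span holds the cluster, had a change of -0.08 (adjusted p = 0.733).

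All 233 miRNA genes measured had a RefSeq position, and 11 of them fell, against 0.513% of all genes, while 1 rose, Mir145a (1.38). These groups were formed after the values were seen. Beside the Mir302 cluster, Mir421 (-1.44), Mir363 (-1.41), Mir18 of the Mir17 cluster (-1.04) and 3 of the 27 measured genes of the Mir379 cluster, a large imprinted cluster on chromosome 12, fell. These 3 were Mir380 (-1.69), Mir379 (-1.48) and Mir329 (-1.19), and 26 of the 27 had a negative change, with a median of -0.70. The median change of all miRNA genes was -0.03. The calls of Mir18 (lost without day 4 replicate 1, at -0.98), Mir329 (day 2 replicate 1 or day 4 replicate 2, -0.84), Mir380 (any but day 4 replicate 1, -1.17) and Mir363 (any one array, -1.28) depended on single arrays. Other small RNAs moved as well: of 51 small nucleolar RNA genes, also grouped after the values were seen, 4 fell, Snord42a, Snord58b, Snord37 and Snora41, and 1 had a positive change. The calls of Snord58b, Snord37 and Snora41 were lost without day 2 replicate 1 among others, and their smallest changes with 1 array left out were -0.82, -0.98 and -0.93. Their median went from 9.95 and 9.78 on the day 2 arrays to 9.33 and 9.22 on the day 4 arrays. The median of the Mir302 cluster went from 9.48 and 10.00 to 6.74 and 7.56. The part of such a shift of small RNAs in the miRNA changes was not tested.

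Cell shape genes changed in part. Of 8 transcription factors of epithelial-to-mesenchymal transition (EMT) Zeb1 rose, from 7.87 and 7.83 to 9.31 and 9.16 (1.38, SE 0.24, adjusted p = 0.00505), while Snai1 (-0.31), Snai2 (0.85), Zeb2 (0.08) and Twist1 (0.17) were not called. Snai1 and Zeb2 had higher means in MES, 10.71 and 9.47, than on any MP array. Of 29 mesenchymal and matrix genes 6 rose, with a median change of 0.42. Hmcn1, a basement membrane protein, rose by 2.41 (SE 0.32, adjusted p = 0.000897), the matrix protease Mmp2 by 1.44 (adjusted p = 0.00173), and Tnc, Cdh2, Hapln1 and Lama4 by 1.23, 1.19, 1.17 and 1.06. Tnc lost its call without day 2 replicate 1 (1.10) and Lama4 without day 4 replicate 1 (0.89). Vim, vimentin, was high throughout, with 13.09 and 13.08 on day 2 and 13.40 and 13.41 on day 4.

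Of 31 epithelial junction and polarity genes 3 rose and 2 fell (median change 0.04). Cdh3, P-cadherin, went from 8.54 and 8.33 to 10.85 and 10.76 (2.37, SE 0.12, adjusted p = 2e-06). The keratins Krt19 and Krt8 rose by 1.23 and 1.13, the former lost without day 2 replicate 2 (0.90). Mal2 and Rab25, both of apical vesicle traffic, fell by 2.15 and 1.04, the latter lost without day 2 replicate 1 or day 4 replicate 1 (-0.86). Cdh1, E-cadherin, stood at 12.17 and 12.15 on day 2 and at 11.76 and 11.68 on day 4 (-0.44, SE 0.09, adjusted p = 0.0135), under the fold threshold, and MES had a mean of 10.41. Of 18 actin and sarcomere genes Acta2, smooth muscle actin, rose from 7.42 and 7.54 to 9.43 and 9.59 (2.03, adjusted p = 5.35e-06) and Myl4, an atrial myosin light chain, by 1.30 (adjusted p = 0.000169). Acta2 stood at 12.45 in ES. In the fibroblast list Pdgfrb was the 1 of 24 that rose, and Col1a1 (0.32), Col3a1 (-0.03) and Dcn (-0.10) were not called.

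Other genes with large rises that no list holds included Cpm, a carboxypeptidase of the cell surface, from 7.38 and 7.28 to 10.27 and 10.35 (2.98, adjusted p = 2.19e-06), Adgra2, a receptor of Wnt7 signalling in vessels (2.98, adjusted p = 5.32e-05), the netrin receptor Unc5c (2.92, adjusted p = 4.7e-06) and Pmp22, a membrane protein of Schwann cells and mesenchyme (2.77, adjusted p = 6.6e-05). H60b, Amph and Capn6 rose by 2.64, 2.33 and 2.33. In the imprinted list 4 of 21 rose, namely Igf2, Airn (1.86, adjusted p = 0.0013), Mest (1.38, adjusted p = 4.54e-05) and Dlk1 (1.31, adjusted p = 0.000131). Meg3 and Rian, maternally expressed RNAs of the locus that holds the Mir379 cluster, had changes of -0.44 and -0.70. Of 20 glycolysis genes the glucose carrier Slc2a3 rose (1.05, adjusted p = 0.000161). Among 21 genes of S phase and mitosis, 17 of hypoxia, 19 of cholesterol synthesis and 16 of the amino acid stress response 0 were called by limma, and 0, 6, 10 and 5 had an unadjusted p below 0.05, against 20.5% of all genes.

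Genes of the interferon response, which block viruses and can be switched on by interferon or by double-stranded RNA in the cell, had 5 of 26 that rose and a median change of 0.37. Oasl2 went from 8.62 and 8.66 to 10.74 and 10.88 (2.17, SE 0.16, adjusted p = 1.35e-05). Parp12 rose by 1.40 (adjusted p = 0.00824), Parp14 by 1.14 (adjusted p = 0.015), Ifitm1, also a marker of early mesoderm, by 1.08 (adjusted p = 0.00168) and Ifih1, a sensor of double-stranded RNA, by 1.05 (adjusted p = 0.000369). The calls of Parp12 were lost without day 2 replicate 2 or day 4 replicate 2 (1.13 at the least), of Parp14 without any one array and of Ifitm1 without day 4 replicate 2 (0.98). Classical members such as Ifit1 (0.36), Mx1 (-0.19), Bst2 (-0.20) and Rsad2 (-0.06) were not called. Outside the list, and chosen after their values were seen, 3 of 7 guanylate binding protein genes rose, Gbp4 (1.93), Gbp7 (1.72) and Gbp9 (from 6.85 and 7.04 to 8.36 and 8.48), and Trim30a and Ddx60 rose by 1.88 and 1.14.

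RefSeq promoters of 300 bases, 250 before the gene's start and 50 after it, were at hand for 157 of the 229 genes that rose, 65 of the 96 that fell and 14680 of all. The interferon-stimulated response element, searched as GAAANNGAAA on both strands, was in 12 of the 157 (7.64%), in 2 of the 65 (3.08%) and in 545 of all promoters (3.71%), and in 8 of 20 of the interferon list. It stood in the promoter of 1 of the 4 list genes that rose and had a promoter, Ifih1, and in those of Gbp7, Ddx60 and Trim30a. Windows around the element, which is in capitals, show how closely the genes match, each written on the gene's strand with GRCm38.p6 coordinates.
Ifih1 (chr2:62646206-62646233, minus strand): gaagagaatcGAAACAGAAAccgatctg
Gbp7 (chr3:142530273-142530302, plus strand): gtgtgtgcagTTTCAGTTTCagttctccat
Ddx60 (chr8:61928058-61928087, plus strand): gagcagaagaGAAACCGAAActatccttca
In Gbp7 the element lies on the opposite strand. The Cdx letters TTTATTG were in 4.46% of the promoters of genes that rose and 3.6% of all, and the Tcf letters CTTTGAT in 4.46% and 3.49%. The Gata letters AGATAA were in 7.01% and 9.9%, and the Smad letters GGCGCC in 20.4% and 19.8%. Such a match is a description of the letters in these windows.

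F+CD24low cells, whose arrays are not part of the comparison of MP, were used to see which changes differed between the populations. The populations came from different media, so that population and medium cannot be told apart. In them 69 genes rose (0.369%) and 14 fell (0.0748%) from day 2 to day 4. The genes that rose in MP had a median change of 1.36 there and of 0.07 in F+CD24low cells, and those that fell had medians of -1.26 and -0.20. The MP medians are bound by the call, which asks for a change above 1 in size. The genes were not chosen on their F+CD24low changes, so the medians of the 2 populations are not alike in kind. Of the genes that rose in MP, 8 rose in F+CD24low too, which is 3.49% of the former and 11.6% of the latter list. Of those that fell, 5 also fell in F+CD24low (5.21% and 35.7%), and 3 rose there (3.12% and 4.35%).

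The difference of the changes was tested as an interaction in the same model. It was called for 170 genes with a higher change in MP (0.908%) and 123 with a lower one (0.657%). Of the 229 genes that rose in MP, 136 (59.4%) were among the former, and of the 96 that fell, 45 (46.9%) among the latter. The interaction holds the MP arrays on which these genes were called, so part of this overlap is built in. Cpm had the highest difference, 3.41 (SE 0.23, adjusted p = 3.54e-05), with a change of -0.43 in F+CD24low, and Shisa6 the lowest, -3.29 (SE 0.33, adjusted p = 0.000361), with a change of 0.87 there. Of the Hox genes 16 had a higher change in MP (Hoxb9 not without MP day 4 replicate 1 and Hoxc9 not without MP day 4 replicate 2 or F+CD24low day 2 replicate 2, both at 0.98 or 0.97), and the median change of the Hox list in F+CD24low was 0.01. Wnt5a (2.69, adjusted p = 1.95e-05), Cdx2 (2.52, adjusted p = 1.95e-05), Kit (2.49, adjusted p = 0.000132), Oasl2 (2.51, adjusted p = 0.000171), Bmp4 (2.60, adjusted p = 0.0106), Bmp2 (2.37, adjusted p = 0.000685) and Etv2 (2.02, adjusted p = 3.44e-05) also differed, as did Otx2 (-2.51, adjusted p = 5.33e-05), Fgf5 (-2.38, adjusted p = 0.000132) and Dnmt3b (-1.70, adjusted p = 0.000169) in the other direction.

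For Lefty1 the difference was 3.07 (SE 0.38, adjusted p = 0.00129), and F+CD24low cells were high on both days, with means of 11.45 and 11.41. For Lefty2 it was 1.96 (adjusted p = 0.0528) and was not called. Gpc4, a glypican, Calcr, the calcitonin receptor, and Frzb fell in MP and rose in F+CD24low, with changes of -1.57 and 1.19, -1.11 and 1.46, and -1.05 and 1.35. The call of Calcr in MP was lost without day 2 replicate 1 or day 4 replicate 2 (-0.94), as was that of Frzb without day 2 replicate 1.

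Changes that both populations had included those of Nrp1 (2.35 in MP and 2.06 in F+CD24low), Sfrp1 (2.61 and 1.68) and Prdm1 (1.16 and 1.24), all higher on day 4, and of Wnt8a (-2.23 and -1.73) and Apln (-1.49 and -1.08), both lower. For these 5 the interaction was not called, with differences of 0.29, 0.92, -0.08, -0.51 and -0.41 (adjusted p = 0.888, 0.161, 0.96, 0.135 and 0.682). Arhgef26 fell in both and yet differed (-2.08 and -1.08, difference -1.0, adjusted p = 0.0043), a call that was lost without T+CD24low day 2 replicate 1, T+CD24low day 4 replicate 1, F+CD24low day 2 replicate 2 or F+CD24low day 4 replicate 1 (-0.91). The Mir302 genes were lower on day 4 in F+CD24low too, with changes from -1.15 to -0.82, but neither those nor the differences, from -1.78 to -1.50, were called. The small nucleolar RNA genes had a median change of -0.19 in F+CD24low and of -0.47 in MP.

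**Figure D5:**
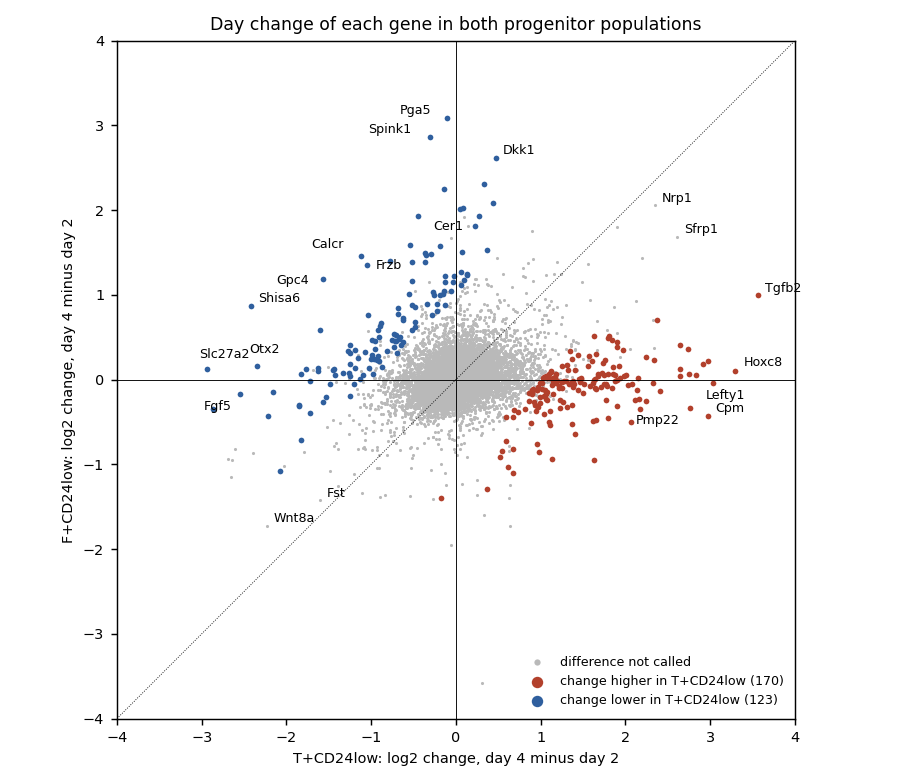
Log2 change from day 2 to day 4 of each of the 18716 genes in T+CD24low cells (horizontal) and in F+CD24low cells (vertical), coloured where the 2 changes differ by the interaction test, 170 genes with a higher change in T+CD24low in red and 123 with a lower one in blue. Genes on the dotted diagonal changed by the same amount in both populations. Red genes lie mostly to the right at small vertical values, while Nrp1 and Sfrp1 rose in both.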

How the data were processed

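RNA of 16 samples, in 8 groups of 2 biological replicates, was extracted with a kit that keeps small RNA, amplified and hybridized to Affymetrix Mouse Gene ST 1.0 arrays. The authors ran robust multichip average (RMA) on all arrays with oligo 1.48.0 and deposited the resulting log2 values of the probe sets. RMA corrects the background, gives all arrays 1 distribution and summarizes the probes, so these values compress differences of low genes and hide any change in the amount of RNA per cell. Precision is limited by having 2 arrays a group.

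Of the deposited values, the 32000 probe sets with the highest mean entered limma 3.58.1 (lmFit and eBayes under R 4.3.3, all 16 arrays, 8 group means), following the paper's filter and thresholds, with Benjamini-Hochberg adjustment over these probe sets. Groups came from the sample labels. The platform annotation gave 1 symbol to 20427 probe sets, several to 1400 and none to 10173. Probe sets with several symbols name no gene here. T was not analysed here. Of the called genes 15 have several probe sets, and in all of these every probe set moved the same way. The interaction contrast took the day change of F+CD24low cells from that of T+CD24low cells. Comparisons with ES and T+CD24neg share arrays with the main one, so only levels are given for them.

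The comparison and the 52 gene lists were chosen with earlier results of these data known. Named genes were taken from the 20 highest and 20 lowest called genes and the 10 highest and 10 lowest of the interaction. Further sources were called list members, uncalled members where their list needs them, genes the paper names for these arrays, Foxa2 and Cd24a. Some called Hox genes, such as Hoxd8, and some genes of the paper, such as Sox17, Lef1 and Tbx3, are not given. Genes outside this rule are said to be chosen after their values were seen. Replicate numbers were checked for pairing: the deviations of the same-numbered T+CD24low arrays of the 2 days correlated at 0.0533, and the numbers were not used as a block. The fits were tested on simulated data. Alternatives were the probe set filter, the arrays in the fit, the moderation, the scaling, a replicate block, each array left out, the threshold and the mean of a gene's probe sets. Coordinates and sequences are those of RefSeq on GRCm38.p6, and no coordinates are given for the probe sets, whose build is not given in the sources used here.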

Additional observations from a re-analysis of the deposited data

Results flagged for a closer look

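The day change differed between T+CD24low and F+CD24low cells, by the limma interaction test with Benjamini-Hochberg adjustment, for 170 genes with a higher and 123 with a lower change in T+CD24low. Of these 293 genes, 181 were also called in T+CD24low, 39 in F+CD24low alone and 73 in neither. The interaction uses the arrays of both day comparisons, so these overlaps are in part built in. Of the 37 Hox genes, 16 had the higher change in T+CD24low.

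The 10 highest differences with the days of T+CD24low not overlapping were those of Cpm (3.41), Hoxc8 (3.19), Pmp22 (3.10), Lefty1 (3.07), Hoxc6 (2.77), Adgra2 (2.76), Unc5c (2.73), Wnt5a (2.69), Bmp4 (2.60) and Nxf7 (2.58). In all of these T+CD24low rose, while the change in F+CD24low was between -0.95 for Nxf7 and 0.22 for Adgra2 and was not called.

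The 10 lowest were those of Shisa6 (-3.29), Pga5 (-3.20), Spink1 (-3.17), Slc27a2 (-3.07), Gpc4 (-2.76), Calcr (-2.58), Nefl (-2.53), Otx2 (-2.51), Frzb (-2.41) and Timp4 (-2.38). For Pga5, a pepsinogen, Spink1, a trypsin inhibitor, and Timp4, an inhibitor of metalloproteases, the difference came with a rise in F+CD24low, by 3.09, 2.86 and 1.93, and with T+CD24low changes of -0.11, -0.31 and -0.45 that were not called. The difference of Spink1 was no longer called without F+CD24low day 4 replicate 2 or T+CD24low day 2 replicate 2 (-2.91 at the least). For Slc27a2, Nefl and Otx2 the F+CD24low changes of 0.13, -0.34 and 0.16 were not called.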

How the results depend on the processing

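The counts of 229 genes that rose and 96 that fell became 141 and 73 with 16000 probe sets, 868 and 546 with the adjusted p alone, 35 and 15 with a change above 2, and 47 and 13 with limma's treat against a change of 1. They stayed within 1.5 times of the main counts with no filter (228 and 95), trend and robust moderation (229 and 96), arrays centred on their medians (236 and 90), only the 4 T+CD24low arrays (226 and 95), only the 6 T+ arrays (227 and 97) and the mean of a gene's probe sets (227 and 99). The fewer genes under 16000 probe sets include those no longer tested. With 1 of the 4 arrays left out they ranged from 192 to 222 and from 70 to 103, and 205 of the 325 calls were kept in all 4 fits; an arm then has 1 array, assumed to vary like the other groups.

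The interaction counts of 170 and 123 became 102 and 87 with 16000 probe sets, 168 and 120 with no filter, 170 and 122 with trend and robust moderation and 174 and 113 with centred arrays. With 1 of 8 arrays left out they ranged from 127 to 164 and from 81 to 114, the lowest being 81 without T+CD24low day 2 replicate 1, and 171 of the 293 calls were kept in all 8 fits. With a replicate block the counts were 227 and 99 for the days and 170 and 123 for the interaction, and the one named gene that lost its call was Crabp2. No result changed its direction under the alternatives run. With 2 arrays per group many calls depend on single arrays, as given beside the genes.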

Other observations

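By the interaction test 20 members of the gene lists differed between the populations without a call in T+CD24low, 8 with a higher and 12 with a lower change there. Spink1, one of the latter, is given above. Higher in T+CD24low were the changes of Fgf8 (difference 1.39, adjusted p = 0.00263; changes 0.54 and -0.84 in F+CD24low), Aplnr (1.71, adjusted p = 0.00403; 0.96 and -0.76), Tfap2c, an AP-2 factor of germ cells and trophoblast (1.65, adjusted p = 0.000961; 0.62 and -1.03), Tpm1, a tropomyosin (1.50, adjusted p = 0.00922; 0.68 and -0.82), the interferon regulatory factor Irf1 (1.65, adjusted p = 0.0208; 0.37 and -1.29), and Nkx1-2 (1.26), Ndrg1, a gene of the hypoxia list (1.22), and the homeobox gene Dlx5 (1.05). Lower were those of Dkk1, a Wnt inhibitor (-2.15, adjusted p = 0.000758; 0.47 and 2.62), Lhx1, a streak and endoderm factor (-1.69, adjusted p = 0.00187; -0.52 and 1.17), Slc7a3, an arginine carrier (-1.51, adjusted p = 0.00416; -0.92 and 0.59), the tight junction gene Cldn6 (-1.22, adjusted p = 0.00814; -0.97 and 0.25), and Cer1, a secreted Nodal, Bmp and Wnt inhibitor (-1.76), the Wnt inhibitor Sfrp5 (-1.66), Irs4 (-1.65), the Wnt receptor Fzd5 (-1.30), Fgf14 (-1.23), Sema6d (-1.22) and Ikzf1 (-1.19). With 1 array left out in turn, the call was lost at least once for 9 of the 20. Beside Spink1 these were Irf1, lost in 5 of the 8 fits, Nkx1-2 (5), Dlx5 (6), Cer1 (8), Sfrp5 (5), Irs4 (7) and Fzd5 (6), and Ikzf1 without T+CD24low day 2 replicate 1. In T+CD24low cells alone these genes give values on either side of 0 and short of the threshold, Cldn6 at 11.42 and 11.26 on day 2 and at 10.39 and 10.35 on day 4.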
